A study of Homo sapiens with 12 samples.

Results

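The dual-specificity MAP kinase phosphatases were followed at the transcript level in HCT116 cells, a human colorectal cancer line, over a time course of low oxygen. The 10 genes were DUSP1, DUSP2, DUSP4, DUSP5, DUSP6, DUSP7, DUSP8, DUSP10, DUSP14 and DUSP16, out of 56537 gene names in the table. They were taken by name, not by their values: every transcript model of these genes that matched an annotated transcript (class code =) or shared a splice junction with one (class code j) was used, 46 models of 286562, and the FPKM values of a gene's models were added. FPKM is fragments per kilobase of transcript, scaled to the mapped fragments of the library, so levels can be set side by side between genes of different length. Strand-specific poly(A) RNA was sequenced from cells kept in 21% O2 (0 h) and from cells moved to 1% O2 for 1, 2 or 24 h, with 3 replicates at each time and 12 libraries in all. All groups were the same line in the same medium, with no genetic change or drug, and a cell line in culture holds no stroma or vessels. No library came from cells kept in 21% O2 for 1, 2 or 24 h more. Low oxygen therefore cannot be told apart from handling and added time in culture. The number of reads behind a value is not known from FPKM, so precision was judged from the spread between replicates only. All 10 genes were above 0.5 FPKM in at least 3 libraries, the filter that left 16680 gene names for testing, and all 10 are accounted for.

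MAP kinases (ERK, JNK and p38) are switched on when a threonine and a tyrosine in their activation loop are phosphorylated, and MAP kinase phosphatases switch them off by removing both phosphates. Most of the family bind their kinase through an N-terminal domain, which also sets which kinase each prefers and whether the enzyme sits in the nucleus or the cytoplasm. Several are themselves transcribed when MAP kinases are active, which makes them feedback inhibitors of the pathway that induces them, and tumours with an active ERK pathway often hold high levels of the ERK-specific members. Oxygen sensing, by contrast, runs through the hypoxia-inducible factors, which accumulate when oxygen is too low for their prolyl hydroxylases.

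Known hypoxia genes were higher at 24 h. All 8 examined (CA9, NDRG1, VEGFA, EGLN3, ANKRD37, BNIP3, SLC2A1 and ADM) rose, with a median log2 fold change of 3.39. With TPM over all transcripts 6 of them did so. Epithelial markers summed to between 1998 and 2820 FPKM in every library, although VIL1 was at most 0.048 FPKM. Markers of other cell types summed to 3.59 to 5.27 FPKM from 0 to 2 h and to 15.5 to 20.3 FPKM at 24 h. CD68 and COL1A1 made up nearly all of that sum, while PECAM1 was listed at 0 in all 12 libraries and PTPRC and CD3E in 11 each. The part of these other markers in the results at 24 h was not tested. The third replicates of 1 h and of 2 h stood apart in immediate early genes: EGR1 was 332 and 206 FPKM there, against 37.97 to 86.4 FPKM in the other 4 libraries of those times. Early values of some genes are given with and without those 2 libraries. Others moved as much, such as ZFP36 at 1 h, with log2 fold changes of 1.88 with them and 1.15 without. In bulk RNA, fewer cells that express a gene and less RNA per cell cannot be told apart.

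At 0 h the family was carried by the ERK-specific enzymes DUSP5 and DUSP6, with 66.9 ± 12.7 and 62.6 ± 3.54 FPKM (mean ± SD, n = 3, as throughout). These 2 ranges overlapped, and so did those of the next pair, DUSP14 with 27.7 ± 4.15 FPKM and DUSP4 with 25.1 ± 2.89 FPKM. DUSP7 followed with 12.3 ± 0.731 FPKM, then DUSP2 with 8.17 ± 0.711 and DUSP1 with 4.37 ± 0.224 FPKM, each apart from its neighbours. DUSP16 (2.54 ± 0.434 FPKM) and DUSP8 (1.86 ± 0.413 FPKM) overlapped, and DUSP10 was lowest at 0.378 ± 0.167 FPKM. At 24 h the order was DUSP5, DUSP6, DUSP4, DUSP1, DUSP14, DUSP7, DUSP16, DUSP8, DUSP2 and DUSP10, and DUSP8 and DUSP2 were the only neighbours whose ranges overlapped. DUSP1 had passed DUSP2, DUSP7 and DUSP14 on the way, and DUSP2 had dropped below DUSP16.

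The summed level of the 10 genes was 212 ± 20.2 FPKM at 0 h, and 281 ± 14.3, 344 ± 41.0 and 439 ± 3.87 FPKM after 1, 2 and 24 h of low oxygen. The 24 h libraries lay between 435 and 443 FPKM, above every other library. DUSP5 and DUSP6 together made up 61.1% ± 1.28 of that sum at 0 h, then 66.03% ± 0.474, 71.3% ± 2.73 and 71.4% ± 2.37 after 1, 2 and 24 h, and the ranges at 0 h and 2 h did not overlap. The share of DUSP6 was 29.7% ± 2.99 at 0 h and 27.9% ± 3.11 at 24 h, with overlapping ranges, whereas that of DUSP5 was 31.4% ± 3.06 and 43.5% ± 4.89, with ranges apart. The share of DUSP1 went from 2.08% ± 0.266 to 5.76% ± 1.30. The shares of DUSP14 (13.1% ± 0.799 to 4.198% ± 0.325), DUSP7 (5.81% ± 0.237 to 2.30% ± 0.159) and DUSP2 (3.86% ± 0.0636 to 0.556% ± 0.153) were lower at 24 h.

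**Figure D1:**
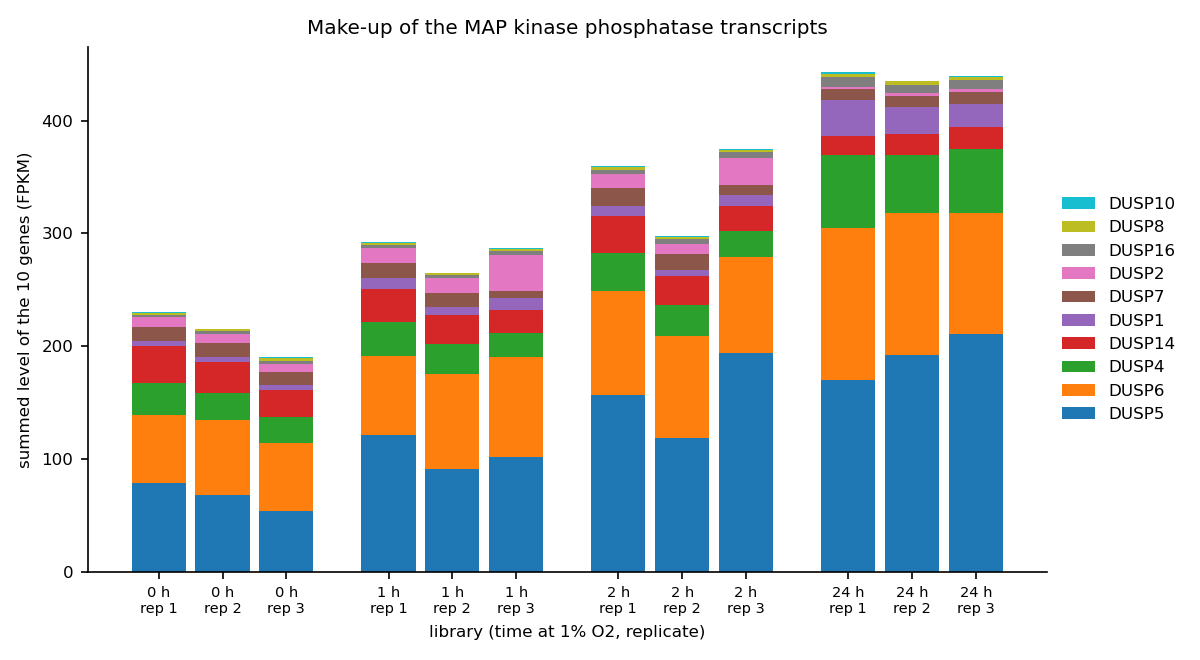
Stacked bars give the FPKM of each of the 10 phosphatase genes in each of the 12 libraries, so that bar height is their summed level. The bars reach 435 to 443 FPKM at 24 h, and DUSP5 (lowest segment) and DUSP6 hold 61.1% of the sum at 0 h and 71.4% at 24 h on average.

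Changes were tested with limma across all 16680 gene names, on log2(FPKM + 0.5), which understates the change of genes with low values. A gene was called, and is said to have risen or fallen, when the change was more than 2-fold and the Benjamini-Hochberg adjusted p was under 0.01. At 24 h against 0 h, 5 of the 10 phosphatases were called, 4 up (DUSP1, DUSP4, DUSP5 and DUSP16) and 1 down (DUSP2). Of all genes tested, 18.3% were called at that time, 8.76% higher and 9.51% lower. Without the fold threshold, 8 of 10 had an adjusted p under 0.05, against 55.3% of all genes. The 3 libraries at 24 h lay above all 3 at 0 h for 6 phosphatases and below them for 3, against 27.6% and 32.8% of all genes. The median log2 fold change of the 10 was 0.76, and that of all genes was -0.05.

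Scaling mattered for the size of these changes. Transcript models shorter than 300 bases held between 56.9% and 87.7% of all FPKM in a library, and this share varied between libraries. When the values were rescaled to TPM over all models, the median of all genes moved to -0.67 at 24 h, 215 genes were called higher and 3893 lower (1462 and 1586 without rescaling), and 3 phosphatases were called: DUSP1 up, DUSP2 and DUSP14 down. Relative to that median, all 10 genes stayed on the same side of it as before, with DUSP1 at 2.14, DUSP16 at 1.35, DUSP5 at 1.32 and DUSP4 at 0.99 above it on the log2 scale. On this scale the sum of the 10 genes was 118 ± 27.3 TPM at 0 h, then 103 ± 34.0, 89.3 ± 19.6 and 141 ± 62.0 TPM after 1, 2 and 24 h, so that the early means were below 0 h rather than above it and every range overlapped that of 0 h, while shares within the family are the same on either scale.

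At 1 h and 2 h no phosphatase was called by limma, when 0.006% (1 gene) and 0.018% (3 genes) of all genes were. At an unadjusted p under 0.05 there were 4 at 1 h (DUSP1, DUSP2, DUSP5 and DUSP6) and 4 at 2 h (DUSP1, DUSP5, DUSP6 and DUSP16), all higher than at 0 h, against 4.61% and 15.3% of all genes in either direction. With TPM over all transcripts the sign turned for DUSP6 at 1 h (-0.27) and for DUSP1 (-0.18), DUSP6 (-0.57) and DUSP16 (-0.18) at 2 h, and of the genes called on that scale 22 of 31 were lower at 1 h and 376 of 390 at 2 h. The same 4 at each time were those whose libraries all lay above the 0 h libraries, as did those of 6.36% of genes at 1 h and 12.2% at 2 h. The median log2 fold change of the 10 was 0.18 at 1 h and 0.45 at 2 h, beside -0.01 and -0.02 for all genes. The 3 genes called at 2 h, named here after their values were seen, were MAFF, PIM1 and ERRFI1, with log2 fold changes of 1.73, 1.49 and 1.10. ERRFI1 encodes a feedback inhibitor of the EGF receptor.

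At 24 h against 2 h, DUSP1 and DUSP4 rose and DUSP2 fell, beside 14.7% of all genes called, 7.44% higher and 7.28% lower. An adjusted p under 0.05 was reached by 6 of 10 phosphatases and by 50.6% of all genes. The median log2 fold change of the 10 was 0.24, and -0.03 for all genes.

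**Figure D2:**
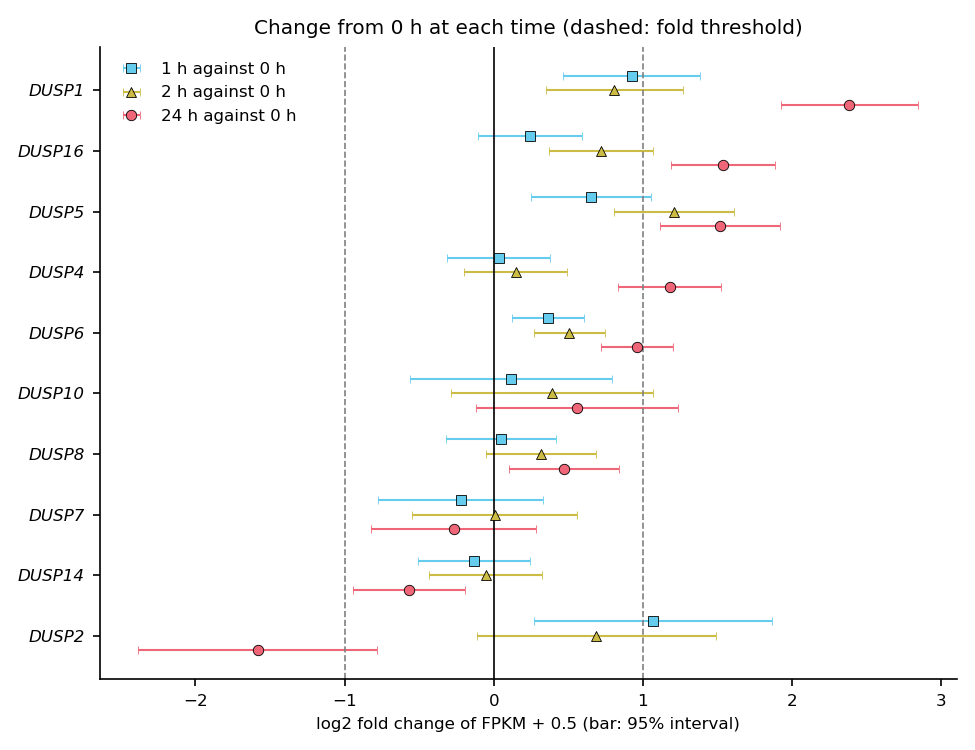
Points are limma log2 fold changes of FPKM + 0.5 against 0 h for the 10 phosphatases at 1 h (squares), 2 h (triangles) and 24 h (circles), bars are 95% intervals (n = 3 libraries a time) and dashed lines mark a 2-fold change. At 24 h DUSP1 (2.38), DUSP16 (1.53), DUSP5 (1.52) and DUSP4 (1.18) lie beyond the upper line and DUSP2 (-1.58) beyond the lower one, and DUSP2 is the only gene with its points on both sides of 0 by more than its standard error.

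Promoter sequence was read for the 8 members that matched RefSeq entries (GRCh38.p14), and the 250 bases before the start are printed for the 3 whose windows held a full cAMP response element, TGACGTCA, or an E-box-like CACGTG, which contains the hypoxia-inducible factor core ACGTG on both strands. The set of promoters that was searched held no window for DUSP4 and DUSP5, which says nothing of RefSeq as a whole. The windows are chr5:172771196-172771445 for DUSP1, chr2:96145441-96145690 for DUSP2 and chr11:1572272-1572521 for DUSP8, all on the minus strand and written 5′ to 3′ with those motifs in capitals.
DUSP1: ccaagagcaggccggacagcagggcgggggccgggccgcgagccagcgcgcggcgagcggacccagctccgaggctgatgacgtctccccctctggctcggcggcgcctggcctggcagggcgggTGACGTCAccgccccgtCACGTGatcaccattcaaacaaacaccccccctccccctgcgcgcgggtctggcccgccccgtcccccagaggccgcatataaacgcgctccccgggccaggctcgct
DUSP2: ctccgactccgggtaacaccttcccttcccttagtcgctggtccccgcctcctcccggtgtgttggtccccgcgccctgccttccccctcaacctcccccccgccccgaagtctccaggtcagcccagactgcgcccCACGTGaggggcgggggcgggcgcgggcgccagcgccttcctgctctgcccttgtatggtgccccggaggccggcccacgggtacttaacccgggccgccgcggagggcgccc
DUSP8: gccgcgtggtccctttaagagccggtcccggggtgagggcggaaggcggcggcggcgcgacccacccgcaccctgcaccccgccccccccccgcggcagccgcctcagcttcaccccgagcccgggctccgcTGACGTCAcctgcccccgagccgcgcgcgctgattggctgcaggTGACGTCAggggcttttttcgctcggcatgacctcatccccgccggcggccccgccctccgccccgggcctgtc
TGACGTCA began at -125 from the start in DUSP1 and at -118 and -74 in DUSP8, and 1.85% of the 35116 promoter windows of the table held it. CACGTG began at -108 in DUSP1 and at -113 in DUSP2, so that ACGTG on the printed strand began at -107 and -112, and 21.4% of all windows held ACGTG on either strand. The other hypoxia core, GCGTG, was in DUSP6, DUSP8, DUSP10 and DUSP14, beside 36.5% of all windows. The AP-1 letters TGANTCA (7.71% of windows) and the ETS letters CCGGAA (17.2%) were in none of the 8. GGGCGG (45.0%) was in 7 of 8, and so was a loose CArG-box pattern, a pair of C and a pair of G with any 6 bases between them (78.2%). These searches ran over 250 bases before and 50 after each start, and a match is a description of letters only.

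DUSP1, DUSP2, DUSP4 and DUSP5 are the nuclear, inducible enzymes, and their time courses differed. DUSP1 (ENSG00000120129, chromosome 5, 172195099 to 172198198, GRCh37) encodes MKP-1, an immediate early phosphatase that acts mainly on p38 and JNK as well as ERK, and its promoter above holds a cAMP response element and a CACGTG. DUSP1 was at 4.46, 4.11 and 4.53 FPKM at 0 h, 9.14, 7.05 and 10.3 after 1 h, 8.19, 5.91 and 10.6 after 2 h and 31.7, 24.3 and 20.1 after 24 h. Every library in low oxygen was above every 0 h library, and the 24 h libraries were above all others. The level was 2.02-fold that of 0 h at 1 h (log2 fold change 0.93 ± 0.21 SE, limma adjusted p = 0.79) and 1.89-fold at 2 h (0.81 ± 0.21, adjusted p = 0.128), neither past the threshold. It rose 5.80-fold at 24 h (2.38 ± 0.21, adjusted p = 2.96e-06) and was 3.08-fold its 2 h level (1.58 ± 0.21, adjusted p = 7.08e-05). Its single transcript model made up the whole of this signal.

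DUSP2 (ENSG00000158050, chromosome 2, 96808908 to 96811179, GRCh37), also called PAC-1, is an ERK and p38 phosphatase best known from activated lymphocytes. It stood at 8.88, 8.19 and 7.46 FPKM at 0 h, 13.4, 13.1 and 31.3 after 1 h, 11.7, 8.50 and 24.0 after 2 h and 1.82, 2.37 and 3.14 after 24 h. The 1 h libraries were all above 0 h, with the third replicates of 1 h and 2 h well above their group, and the 24 h libraries were below all others. The fall at 24 h left 0.299 of the 0 h level (log2 fold change -1.58 ± 0.37 SE, limma adjusted p = 0.00303). That call was lost, with an adjusted p of up to 0.0143, without either of the first 2 replicates of 0 h or of 24 h, or without the filter on low values, while the fold change stayed between -2.04 and -1.42. The 1 h difference of 1.07 ± 0.37 (adjusted p = 0.996) was 0.66 without the third replicates, and the 2 h difference of 0.69 ± 0.37 (adjusted p = 0.396) was 0.28. From 2 to 24 h DUSP2 fell to 0.165 of its level (-2.27 ± 0.37, adjusted p = 0.000291), and to -1.86 on the log2 scale without the third replicate of 2 h. The spliced DUSP2 transcript held 92.8% ± 0.915 of the signal at 0 h and 97.8% ± 1.95 at 24 h, and the retained-intron transcript the rest.

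DUSP4 (ENSG00000120875, chromosome 8, 29190581 to 29208201, GRCh37) encodes MKP-2, a nuclear phosphatase of ERK, JNK and p38. Its levels were 28.4, 24.0 and 22.9 FPKM at 0 h, 30.2, 25.9 and 21.4 after 1 h, 33.3, 27.7 and 23.2 after 2 h and 65.0, 50.8 and 56.6 after 24 h. The 3 early times overlapped fully and the 24 h libraries were all higher. The log2 fold change was 0.03 ± 0.16 SE at 1 h (limma adjusted p = 0.997) and 0.15 ± 0.16 at 2 h (adjusted p = 0.687), with 95% intervals of -0.31 to 0.38 and -0.20 to 0.49. At 24 h DUSP4 rose 2.29-fold (1.18 ± 0.16, adjusted p = 6.1e-05). Against 2 h it rose 2.05-fold (1.03 ± 0.16, adjusted p = 0.000198), just past the fold threshold, and the log2 value was 0.90 without the third replicate of 2 h and 0.94 without the first replicate of 24 h, short of it. That call was lost in 5 of 18 alternatives, with TPM from transcripts of at least 300 bases (0.96) and over all transcripts (1.21, limma adjusted p = 0.064) among them. Of its 3 models, both tested ones rose at 24 h: the 4-exon transcript (ENST00000240100), from 14.8 ± 2.33 to 36.3 ± 5.41 FPKM (1.26 ± 0.23, adjusted p = 0.00222), and an unannotated model that shares junctions with the 5-exon transcript (ENST00000240101), from 10.1 ± 0.625 to 20.8 ± 2.15 FPKM (1.01 ± 0.14, adjusted p = 0.000333).

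DUSP5 (ENSG00000138166, chromosome 10, 112257665 to 112271291, GRCh37) is a nuclear phosphatase specific to ERK, which it also holds in the nucleus. Its mean was the highest of the 10 at every time, although its range at 0 h overlapped that of DUSP6. Its levels were 78.9, 68.1 and 53.6 FPKM at 0 h, 121, 91.2 and 101 after 1 h, 157, 118 and 194 after 2 h and 170, 192 and 211 after 24 h. Every library in low oxygen exceeded every 0 h library, whereas 2 h and 24 h overlapped. The level was 1.56-fold that of 0 h at 1 h (log2 fold change 0.65 ± 0.19 SE, limma adjusted p = 0.996) and 2.34-fold at 2 h (1.21 ± 0.19, adjusted p = 0.0249). The 2 h value passed an adjusted p of 0.05, as 0.312% of all genes did, but not the 0.01 of a call. It was 1.04 without the third replicates of 1 h and 2 h, given with no test because they were left out after values were seen. Leaving out 1 replicate gave a limma adjusted p of 0.011 to 0.118, above 0.05 in 5 of 6 fits. Over all 18 alternatives the adjusted p was under 0.05 in 8, and with TPM over all transcripts the log2 fold change was 0.12 (adjusted p = 0.806). At 24 h DUSP5 rose 2.86-fold (1.52 ± 0.19, adjusted p = 2.89e-05), and against 2 h the difference was 0.31 with a 95% interval of -0.09 to 0.71 (adjusted p = 0.183). A single transcript made up 99.8% of the signal at 0 h.

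With the replicate number as a block, which the correlations of same-numbered 0 h and 2 h libraries call for, 275 genes in place of 52 had an adjusted p under 0.05 at 2 h against 0 h. Among them were DUSP5 (limma adjusted p = 0.0191) and DUSP16 (adjusted p = 0.0429), still short of a call, and 4 genes in all were called.

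**Figure D3:**
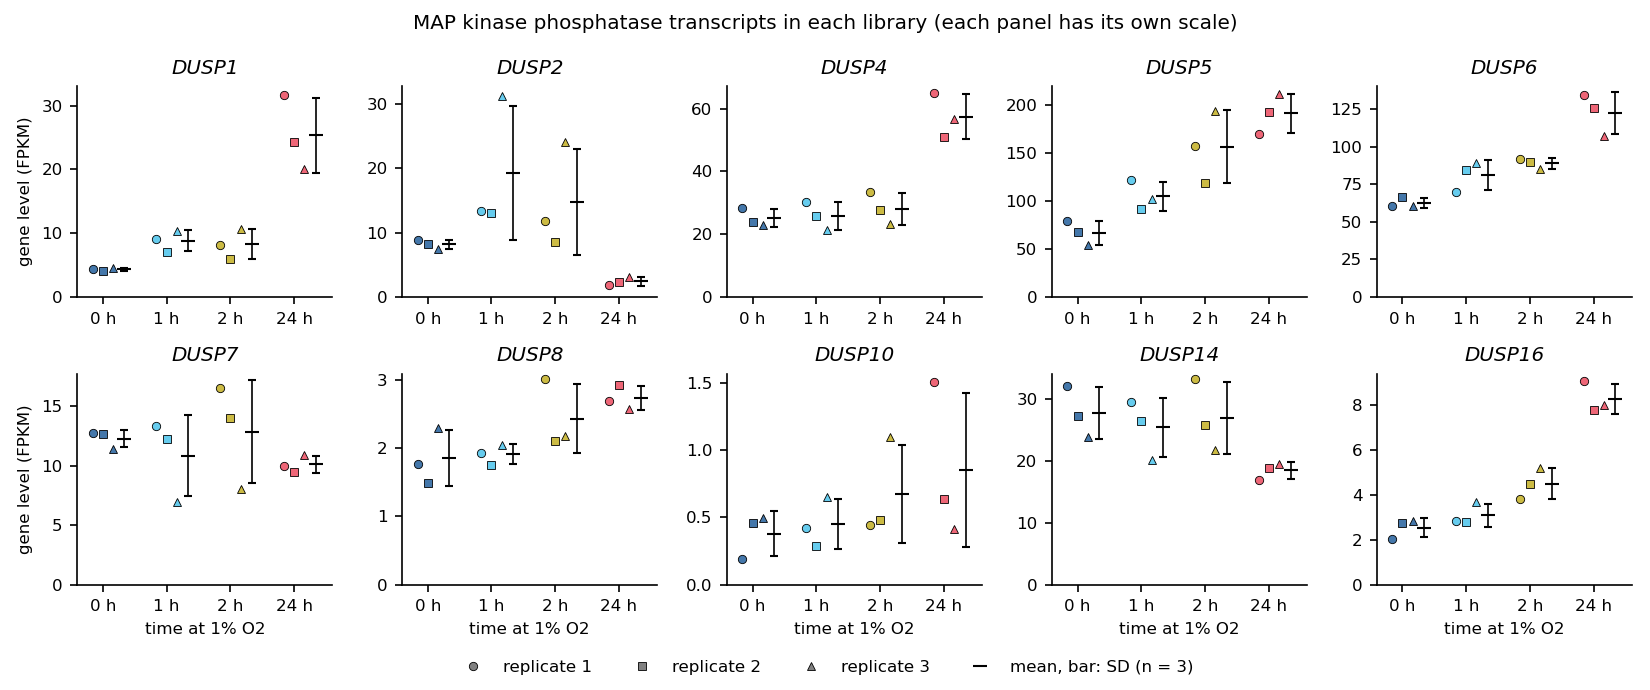
Each panel shows 1 gene, with its FPKM in each library (circles, squares and triangles for replicates 1, 2 and 3) and the mean with its SD bar beside them, against time at 1% O2 on an axis not drawn to scale. DUSP1, DUSP4, DUSP5, DUSP6, DUSP8 and DUSP16 have all 24 h points above all 0 h points, DUSP2, DUSP7 and DUSP14 have them below, and DUSP10 overlaps.

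DUSP6 and DUSP7 are the cytoplasmic, ERK-specific enzymes of the set. DUSP6 (ENSG00000139318, chromosome 12, 89741012 to 89746278, GRCh37) encodes MKP-3, a feedback inhibitor whose transcript is widely used as a readout of ERK activity. It was at 60.5, 66.7 and 60.6 FPKM at 0 h, 70.0, 84.5 and 88.9 after 1 h, 92.2, 90.1 and 85.0 after 2 h and 135, 126 and 107 after 24 h. All libraries in low oxygen were above those of 0 h, and 24 h was above 2 h. The log2 fold change was 0.37 ± 0.11 SE at 1 h (limma adjusted p = 0.996), 0.51 ± 0.11 at 2 h (adjusted p = 0.0832) and 0.96 ± 0.11 at 24 h (adjusted p = 1.91e-05). The 24 h level was 1.96-fold that of 0 h, under the fold threshold, which it passed at 1.02 with median-of-ratios scaling, at 1.01 without the second replicate of 0 h and at 1.05 without the third replicate of 24 h. With TPM over all transcripts it was 0.09 (adjusted p = 0.881). From 2 to 24 h the difference was 0.45 ± 0.11 (adjusted p = 0.00461), also short of 2-fold.

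3 DUSP6 transcripts carried most of the signal. The exon-skipped transcript (ENST00000308385), with 2 exons, lacks the middle exon of the 3-exon transcript (ENST00000279488), which lies at chromosome 12, 89744365 to 89744802, and is 438 bases long (GRCh37). The exon-skipped transcript made up 44.1% ± 1.13 of DUSP6 at 0 h and 41.6% ± 0.19 at 24 h. The share of the 3-exon transcript was 22.8% ± 2.22 at 0 h, then 27.9% ± 4.68, 28.6% ± 2.72 and 26.0% ± 5.07 after 1, 2 and 24 h. The 3-exon transcript was at 13.8, 13.7 and 15.2 FPKM at 0 h and 28.2, 32.9 and 33.3 FPKM at 24 h, and rose (log2 fold change 1.11 ± 0.12 SE, limma adjusted p = 8.77e-05). The exon-skipped transcript was at 26.2, 29.0 and 27.5 FPKM at 0 h and 56.3, 52.2 and 44.5 FPKM at 24 h (0.87 ± 0.12, adjusted p = 0.000395), and a shorter one (ENST00000547291) at 18.1 ± 1.13 and 34.7 ± 8.73 FPKM (0.90 ± 0.23, limma adjusted p = 0.0152). The latter pair did not pass the fold threshold, and the difference between the 3 transcripts was not tested. Over all 46 models of the 10 genes, 24 were tested and 6 rose at 24 h (1 each of DUSP1, DUSP5, DUSP6 and DUSP16 and 2 of DUSP4), beside 11.5% of all transcripts called. That count was 1 with TPM over all transcripts and 3 without the third replicate of 0 h.

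**Figure D4:**
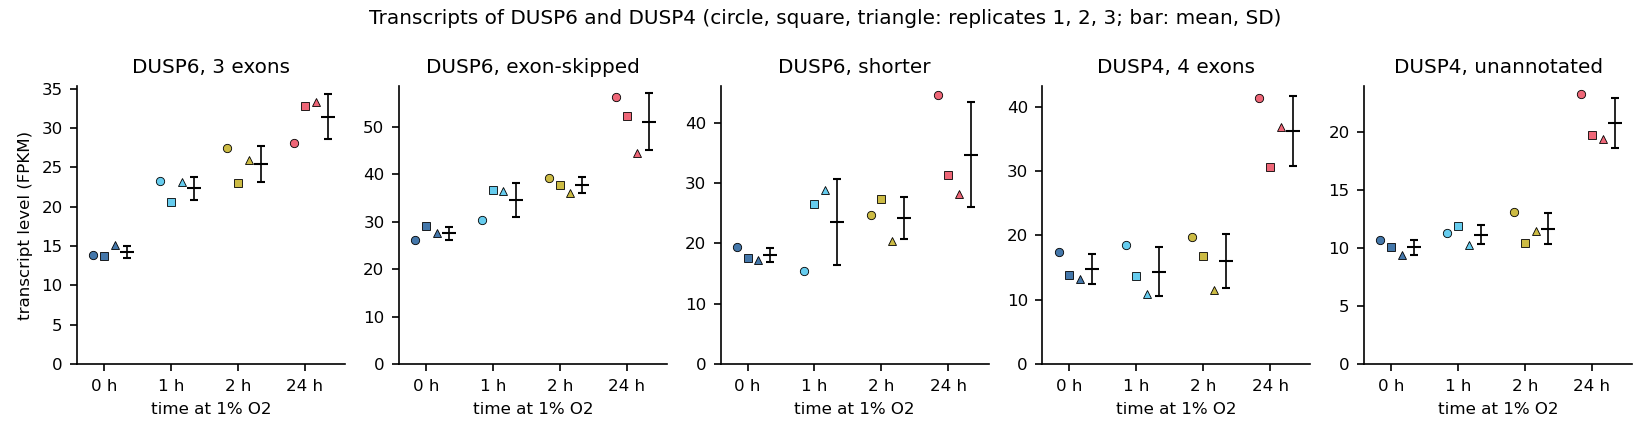
FPKM of 3 DUSP6 transcripts and 2 DUSP4 transcripts in each library, with mean and SD (n = 3), against time at 1% O2 on an axis not drawn to scale. For 4 of the 5 transcripts the early libraries lie below all 24 h libraries, and for the shorter DUSP6 transcript a 1 h library overlaps them.

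DUSP7 (ENSG00000164086, chromosome 3, 52082935 to 52090587, GRCh37) is the close relative of DUSP6. Its levels were 12.8, 12.6 and 11.4 FPKM at 0 h, 13.4, 12.2 and 6.93 after 1 h, 16.5, 14.0 and 8.04 after 2 h and 10.0, 9.44 and 10.9 after 24 h. The third replicates of 1 h and 2 h were the lowest values, the opposite of DUSP2 in the same libraries. The 24 h libraries all lay below 0 h, but the log2 fold change was -0.27 ± 0.25 SE (limma adjusted p = 0.394, 95% interval -0.82 to 0.29). The 1 h value was -0.22 with all libraries and 0.06 without the third replicates, and the 2 h value was 0.01 and 0.30.

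DUSP8, DUSP10 and DUSP16 prefer JNK and p38 over ERK, and all 3 were low in these cells. DUSP16 (ENSG00000111266, chromosome 12, 12626216 to 12715797, GRCh37), also called MKP-7, was at 2.05, 2.73 and 2.85 FPKM at 0 h, 2.82, 2.77 and 3.68 after 1 h, 3.82, 4.50 and 5.19 after 2 h and 9.05, 7.77 and 7.98 after 24 h. The 2 h libraries were all above 0 h, and the 24 h libraries were all above those of 2 h. The log2 fold change was 0.24 ± 0.16 SE at 1 h (limma adjusted p = 0.996) and 0.72 ± 0.16 at 2 h (adjusted p = 0.0884). DUSP16 rose 3.25-fold at 24 h (1.53 ± 0.16, adjusted p = 9.44e-06), and the difference from 2 h was 0.82 ± 0.16 (adjusted p = 0.00117), short of 2-fold. Of its 11 models, 4 were tested and 1 was called, a 3568-base model that went from 0.285 ± 0.0542 to 1.11 ± 0.315 FPKM. A 5949-base model of the same reference transcript held more of the signal (4.63 ± 0.762 FPKM at 24 h) but was at 0.000237 FPKM in the first replicate of 0 h and at 1.36 and 1.25 in the others, so the split between these models varied from library to library.

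DUSP8 (ENSG00000184545, chromosome 11, 1575281 to 1593501, GRCh37) carries the 2 TGACGTCA motifs shown above. Its levels were 1.77, 1.49 and 2.30 FPKM at 0 h, 1.93, 1.76 and 2.04 after 1 h, 3.02, 2.102 and 2.18 after 2 h and 2.70, 2.92 and 2.58 after 24 h. The 24 h libraries were all above 0 h, by a log2 fold change of 0.47 ± 0.17 SE (limma adjusted p = 0.0325), which is under the fold threshold. It turned to -0.16 (adjusted p = 0.654) with TPM over all transcripts and was highest, at 0.85 (adjusted p = 0.0051), when only transcripts above 0.5 FPKM in at least 3 libraries were added. A 637-base model with no defined coding sequence held 43.3% ± 18.4 of DUSP8 at 0 h and 11.6% ± 10.4 at 24 h. The other tested models had higher means at 24 h, and none of the 4 tested was called. DUSP8 has processed copies elsewhere in the genome, and 5 names of such copies summed to 0.0952 to 1.05 FPKM a library, so its low level is uncertain where reads could be shared. DUSP10 (ENSG00000143507, chromosome 1, 221874766 to 221915431, GRCh37), also called MKP-5, lay between 0.19 and 1.503 FPKM over all 12 libraries. The groups overlapped at every time, and the 24 h log2 fold change was 0.56 with a 95% interval of -0.12 to 1.24 (adjusted p = 0.146), so a change of this gene was not detectable at this level. The first replicate of 24 h, at 1.503 FPKM against 0.639 and 0.415 in the others, was the highest, and without it the value was 0.24 (adjusted p = 0.517).

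DUSP14 (ENSG00000276023, chromosome 17, 35849997 to 35873603, GRCh37) is a small enzyme without the N-terminal kinase-binding domain. It stood at 32.1, 27.2 and 23.9 FPKM at 0 h, 29.6, 26.5 and 20.2 after 1 h, 33.3, 25.8 and 21.7 after 2 h and 17.0, 18.9 and 19.5 after 24 h. The 24 h libraries were all below every earlier library. The log2 fold change was -0.57 ± 0.17 SE at 24 h (limma adjusted p = 0.0146) and -0.51 ± 0.17 against 2 h (adjusted p = 0.0261), short of a call in both. At 1 h and 2 h it was -0.13 and -0.05, within the spread. By mean level DUSP14 was the third of the family at 0 h, with a range that overlapped that of DUSP4, and the fifth at 24 h.

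For each of the 5 called phosphatases, the genes with the most similar course were sought by the mean absolute difference, over the 12 libraries, of log2(FPKM + 0.5) centred on 0 h. For DUSP1 these were PIM1 (0.272), HBP1 (0.284) and DICER1-AS1 (0.298). For DUSP5 they were AREG (0.201), an EGF receptor ligand, CTA-29F11.1 (0.222) and MBD5 (0.234). DUSP4 was nearest to PFKFB3 (0.0891), an enzyme that raises glycolysis, and PRKCA (0.107), a protein kinase C, was also close. DUSP16 was nearest to FZD7 (0.11), KCNMB4 (0.118) and LIF (0.128). DUSP2 had no such close neighbour: the smallest values were 0.384 for EIF1AX, 0.403 for GPR3 and 0.417 for RFC3. This distance also grows with the spread between replicates, and DUSP2 had the largest SE of the 5 (0.37).

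Other genes of the pathway were read from lists of known members. Of 19 further dual-specificity and MAP kinase tyrosine phosphatases, 11 were tested and 1 was called at 24 h, when 18.3% of all genes were: DUSP12, an atypical phosphatase not directed at MAP kinases, fell from 27.7 ± 0.927 to 10.96 ± 1.62 FPKM (log2 fold change -1.31 ± 0.15 SE, limma adjusted p = 1.56e-05). DUSP3 and DUSP9, an atypical and an ERK-directed phosphatase, had log2 fold changes of 0.78 (adjusted p = 7.08e-05) and 0.61 (adjusted p = 0.0292), under 2-fold. DUSP11 (-0.56, adjusted p = 0.00154), DUSP23 (-0.61, adjusted p = 0.011) and DUSP28 (-0.49, adjusted p = 0.0458) were lower by less than 2-fold, which makes 6 of 11 at an adjusted p under 0.05 beside 55.3% of all genes. The median over the 11 was 0.09, and with TPM over all transcripts it was -0.68 and DUSP11 and DUSP23 were called lower beside DUSP12.

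Among the kinases, 11 of 13 MAP kinases were tested and 2 rose at 24 h, beside 8.76% of all genes, with a median log2 fold change of 0.09. These were the atypical MAPK15, from 3.58 ± 0.685 to 10.4 ± 2.35 FPKM (1.41 ± 0.19 SE, limma adjusted p = 6.6e-05), and MAPK7, which encodes ERK5, from 3.78 ± 0.58 to 10.2 ± 1.79 FPKM (1.32 ± 0.18, adjusted p = 6.2e-05). MAPK11, a p38 kinase, was called at 24 h against 2 h as well as these 2, but not against 0 h (0.66, adjusted p = 0.00664). At a limma adjusted p under 0.05, 5 of the 11 passed, each of them higher, beside 55.3% of all genes in either direction. MAPK3, which encodes ERK1, was among them, with a log2 fold change of 0.75 (adjusted p = 0.0111), short of a call. MAPK8 and MAPK14, which encode a main JNK and a main p38 kinase, had log2 fold changes of 0.01 (adjusted p = 0.93) and -0.21 (adjusted p = 0.129) at 24 h. Of 6 MAP2 kinases tested, 3 were higher and 1 lower at a limma adjusted p under 0.05, all by less than 2-fold, beside the same 55.3%, and their median was 0.45. With TPM over all transcripts the medians of the kinase lists were -0.74 and -0.41, MAPK15 and MAPK7 were not called, and MAP2K3 was called lower.

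Of 18 genes known to be induced by ERK signalling, 17 were tested and 5 rose at 24 h, with a median log2 fold change of 0.58. With TPM over all transcripts that median was -0.25, or 0.43 above the median of all genes, and SPRY1 was the only gene of the list called higher and CCND1 the only one called lower. The largest change was that of SPRY1, a Sprouty feedback inhibitor, from 0.639 ± 0.0261 to 14.3 ± 1.17 FPKM (3.70 ± 0.19 SE, limma adjusted p = 1.11e-07). IER3 rose from 171 ± 20.5 to 767 ± 186 FPKM (2.14 ± 0.32), and SPRY4 (1.44), EPHA2 (1.41) and PHLDA1 (1.00) also passed. At an adjusted p under 0.05, 10 were higher and 1, CCND1 with -0.96, was lower, beside 55.3% of all genes in either direction, and 8.76% of all genes were called higher. At 2 h SPRY1 (1.55, adjusted p = 0.01) and SPRY4 (1.00, adjusted p = 0.0249) passed 0.05, in the same direction as DUSP5. EGR1 was at 9.43 to 12.2 FPKM at 0 h, 72.7 to 332 after 1 h, 37.97 to 206 after 2 h and 20.8 to 32.4 after 24 h. Its log2 fold changes of 3.53 at 1 h and 2.76 at 2 h had limma adjusted p of 0.386 and 0.0824. Without the third replicates, which were highest at both times, they were 2.84 and 2.03, given with no test because those libraries were left out after the values of this and other immediate early genes were seen.

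Of 8 genes known from JNK or p38 signalling, all were tested and 2 rose at 24 h, JUNB (1.55 ± 0.40 SE, limma adjusted p = 0.00586) and GADD45A (1.15 ± 0.14, adjusted p = 2.36e-05). At an adjusted p under 0.05, 6 were higher and 1, MAPKAPK3 with -0.94, was lower, again beside 55.3% of all genes, with 8.76% called higher. The JUNB call was lost, as was that of PHLDA1, with TPM from transcripts of at least 300 bases, where MAPKAPK3 was called lower. The median of the list was 0.76, or -0.07 with TPM over all transcripts, which is 0.60 above the median of all genes there and called MAPKAPK3 alone, lower. JUNB and ZFP36 also had their highest early values in the third replicates of 1 h and 2 h (99.5 and 127 FPKM for JUNB, 129 and 91.8 FPKM for ZFP36), as DUSP2 did. For JUNB the log2 fold change at 2 h was 1.66 (limma adjusted p = 0.111) with them and 1.13 without, again with no test of the latter.

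**Figure D5:**
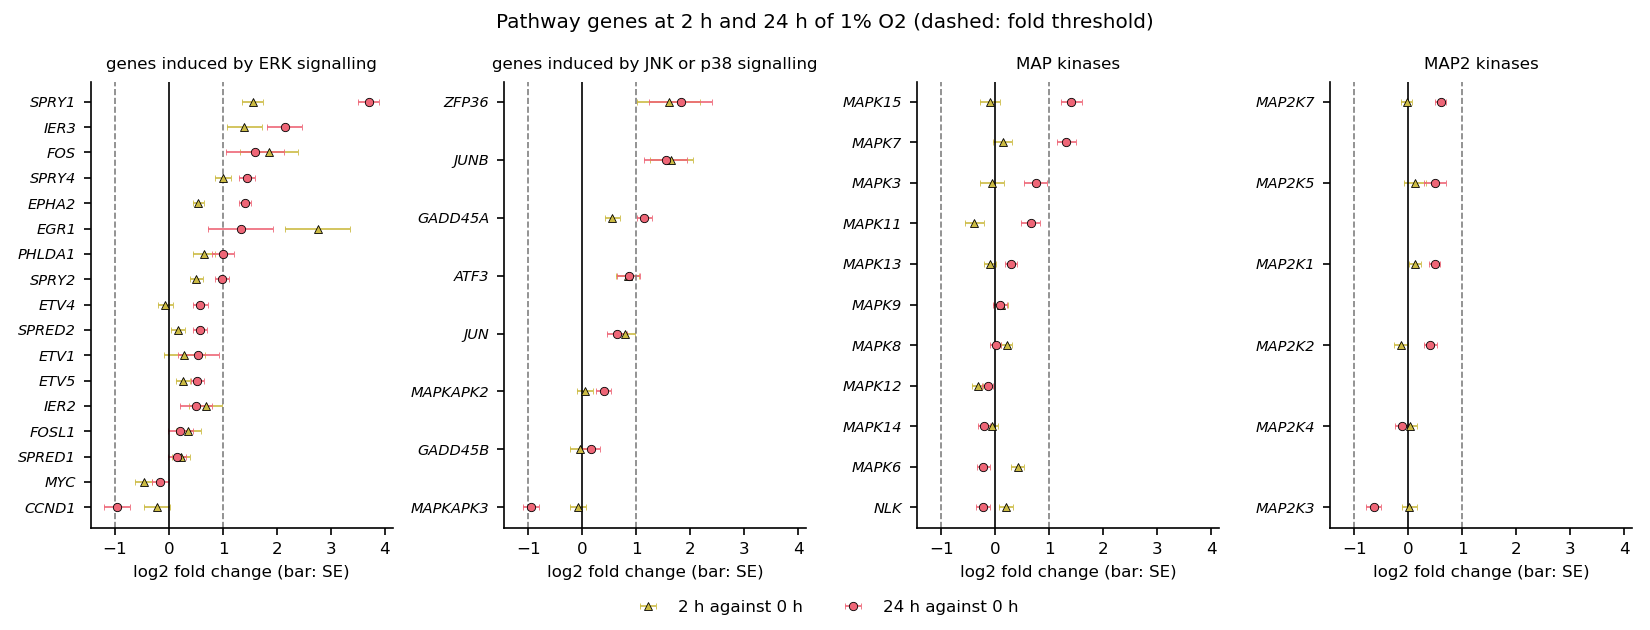
Points are limma log2 fold changes against 0 h at 2 h (triangles) and 24 h (circles) for the tested genes of 4 pathway lists, bars are standard errors and dashed lines mark a 2-fold change. SPRY1 (3.70) and IER3 (2.14) reach farthest at 24 h, MAPK15 and MAPK7 are the only genes of the MAP kinase and MAP2 kinase panels beyond the upper line, and no gene lies below the lower line.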

How the data were processed

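The deposited FPKM values per transcript and library were the starting point. Per the study's methods, the authors aligned reads to hg19 with MapSplice 2.1.4, assembled transcripts with Cufflinks 2.2.0, merged them, compared them with Ensembl 74 and gave each merged model an FPKM value in each library. The submitters' processing notes also list CASAVA 1.8.2. The study tested genes on counts with edgeR; counts were not used here, and the read depth of a library is not given by FPKM.

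Here, FPKM was added per gene name over models of class code = or j and kept above 0.5 in at least 3 libraries. Tests were lmFit and eBayes with trend in limma 3.58.1 (R 4.3.3) on log2(FPKM + 0.5), two-sided, with all 12 libraries, time as a factor and Benjamini-Hochberg adjustment over all genes tested. Calls needed more than 2-fold and an adjusted p under 0.01, the study's thresholds. Transcripts were tested the same way. No rescaling between libraries was applied. Summaries used pandas 2.3.3 and numpy 2.4.6 under Python 3.11.15, and plots matplotlib 3.10.9. The steps were tested on simulated data. Transcript types came from GENCODE release 44 on GRCh37, and promoters from RefSeq.

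The 10 members, the gene lists and the tests were chosen with earlier results of these data known. Genes named were all 10 members, list genes called in any comparison or given as examples, and the 3 nearest genes of each called member. Some genes that this rule or a list would name are not reported here. The study calls its replicates biological; the labels give only numbers. Same-numbered libraries of 0 h and 2 h deviated together from their group means, with correlations across genes of 0.129 to 0.362 in 3 of 3 pairs, so the replicate block is reported for that comparison. Those of 0 h and 1 h were similar, at 0.0954 to 0.34, and differently numbered pairs averaged -0.0767. With the block, 0 phosphatases had a limma adjusted p under 0.05 at 1 h, as without it. Alternatives were other scalings, pseudocounts of 0.1 and 1, other filters, class code = only, the 6 libraries of a contrast, the block and leaving out each replicate. The fit without the third replicates of 1 h and 2 h was added after seeing the data.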

Additional observations from a re-analysis of the deposited data

Results flagged for a closer look

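The change from 0 h was called as different between 24 h and 2 h for 3 of the 10 phosphatases, beside 14.7% of all genes. The test is that of limma for 24 h against 2 h, in which the shared 0 h libraries cancel. For DUSP1 the log2 fold change against 0 h was 0.81 at 2 h and 2.38 at 24 h, a difference of 1.58. For DUSP2 it was 0.69 and -1.58, a difference of -2.27, and the 2 h value did not pass the test (adjusted p = 0.396), with 2 h and 0 h libraries overlapping. For DUSP4 it was 0.15 and 1.18, a difference of 1.03, a call that was lost in 5 of 18 alternatives. DUSP16 (0.82), DUSP6 (0.45) and DUSP14 (-0.51) also had a limma adjusted p under 0.05 but fell short of a call. That makes 6 of 10 at 0.05, beside 50.6% of all genes.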

How the results depend on the processing

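At 24 h against 0 h, DUSP1 was called under all 18 alternatives, with a log2 fold change of 1.47 to 2.54, and DUSP16, DUSP5 and DUSP4 under 17 of 18, the exception being TPM over all transcripts. That scaling called 3 phosphatases and 1 of their transcripts at 24 h. It moved the median of all genes to -0.53 at 1 h, -0.88 at 2 h and -0.67 at 24 h against 0 h and to 0.12 at 24 h against 2 h. Its counts of genes called were 31 at 1 h, 390 at 2 h and, at 24 h against 2 h, 635. It turned the sign at 1 h of DUSP10 (-0.11), DUSP16 (-0.25), DUSP4 (-0.57), DUSP6 (-0.27) and DUSP8 (-0.35), at 2 h of DUSP1 (-0.18), DUSP10 (-0.080), DUSP16 (-0.18), DUSP2 (-0.33), DUSP4 (-0.89), DUSP6 (-0.57), DUSP7 (-0.96) and DUSP8 (-0.42), and at 24 h of DUSP8 (-0.16). Relative to the moved median, 9 of 10 phosphatases at 1 h, 8 of 10 at 2 h and 10 of 10 at 24 h stayed on the same side.

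Genes called at 1 h were 0 with TPM from transcripts 300 bases or longer, with no filter, with the 6 libraries alone and with the replicate block, 0 to 1 with 1 replicate left out, and 3 without the third replicates of 1 h and 2 h together. At 2 h they were 0 with the same TPM, with no filter and with 6 libraries, 6 with a pseudocount of 0.1, 5 with only transcripts above 0.5 FPKM in at least 3 libraries, 0 to 6 with 1 replicate left out and 8 without the same 2 libraries. The fit without those 2 libraries was chosen after immediate early genes were seen. Its counts include genes that led to that choice, so they are no test. With an adjusted p under 0.05 and no fold threshold, 52 genes and 1 phosphatase passed at 2 h, 9228 and 8 at 24 h against 0 h, and 8435 and 6 at 24 h against 2 h. The transcripts called at 24 h numbered 3 to 6 with 1 replicate left out, the lowest without the third replicate of 0 h. Why these counts moved was not tested.

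Small early differences had no stable sign. DUSP4 at 1 h was -0.055 with class code = only, and DUSP7 at 2 h was -0.0070 with TPM from transcripts 300 bases or longer. Without the third replicates of 1 h and 2 h, DUSP10, DUSP14 and DUSP7 at 1 h were -0.029, 0.022 and 0.057, and DUSP14 at 2 h was 0.087. With 1 replicate left out, ranges at 1 h were -0.051 to 0.25 for DUSP10, -0.068 to 0.18 for DUSP8, -0.084 to 0.16 for DUSP4, -0.25 to 0.022 for DUSP14 and -0.39 to 0.057 for DUSP7. At 2 h they were -0.22 to 0.087 for DUSP14 and -0.20 to 0.30 for DUSP7, and DUSP10 at 24 h against 2 h ran from -0.16 to 0.41. The replicate block changed no call of a phosphatase in any comparison. Same-numbered pairs of libraries from different times correlated at 0.154 on average, from -0.0833 to 0.428, and those of 0 h and 24 h at -0.000785 to 0.242. FPKM values hold no read counts, which leaves the precision of genes near 1 FPKM or under, such as DUSP10, to the replicates alone.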
